A study of Mus musculus with 2 samples.

Results

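The liver comparison of a mouse high-fat diet study is described here gene by gene. Its members are the 1 liver array of the 2 arrays in the series and, on it, every gene seen in both diet pools. Male mice of the strain C57BL/6J WT, kept under 12 h of light, were given a normal diet (ND) or a high-fat diet (HFD) during 4 weeks. The submitters combined liver RNA by diet, from 10 livers per the labels, and put the ND pool in the green (Cy3) and the HFD pool in the red (Cy5) channel of a single Agilent array. Whether each pool held 10 livers, the age of the mice, the make-up of the diets and the time of day at sampling are not given in the sources used here.

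The liver takes up nutrients, drugs and bile acids from portal blood and adjusts their handling over the day. A transcriptional clock of activators (BMAL1, CLOCK) and repressors (PER, CRY, REV-ERB) times much of this. Growth hormone, glucocorticoids, insulin and bile acids act on the same cells through their own transcription factors. Hepatocytes also differ by place: those near the central vein express drug-metabolizing enzymes under Wnt signalling, and those near the portal vein make glucose and urea.

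Of 39418 probes with a usable spot, 23041 (58.5%) passed the background filter in both channels, which gave a ratio for 13642 of 20884 genes with a probe. All 30 of 30 hepatocyte markers were measured. Values below are log2 ratios of the HFD pool over the ND pool unless called levels, and a level is the log2 intensity of a gene in 1 pool after normalization. The error beside a ratio comes from the scanner software and belongs to the software's own log ratio, not to the ratio it stands beside. It was combined over the spots and probes of a gene as if these were independent. With 1 array, no replicate and no dye swap, no value has a spread between mice and no test was possible. The number of arrays limits the precision. A probe's dye effect cannot be told apart from the diet. A rule of size took the place of a test: a gene counts as higher or lower where the pools differed by 2-fold or more, a log2 ratio of 1 or -1.

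By that rule 67 genes (0.491%) were higher and 79 (0.579%) lower, together 146 (1.07%), and 8 and 6 of them differed by at least 4-fold. The median gene stood at 0.01, the SD over genes was 0.27, and 7132 genes (52.3%) lay above 0. Under another scaling, median centring of each array without loess, the median gene moved to 0.32, and 445 genes were higher and 28 lower, a share of higher calls of 94.1% against 45.9%. Directions of gene lists below are therefore read against the median of all genes. The brightest genes of the array leaned to the HFD pool. The median ratio was 0.26 over the 107 genes of mean level 16 to 17 and 0.61 over the 50 genes above that, against 0.02 at levels 14 to 16.

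**Figure D1:**
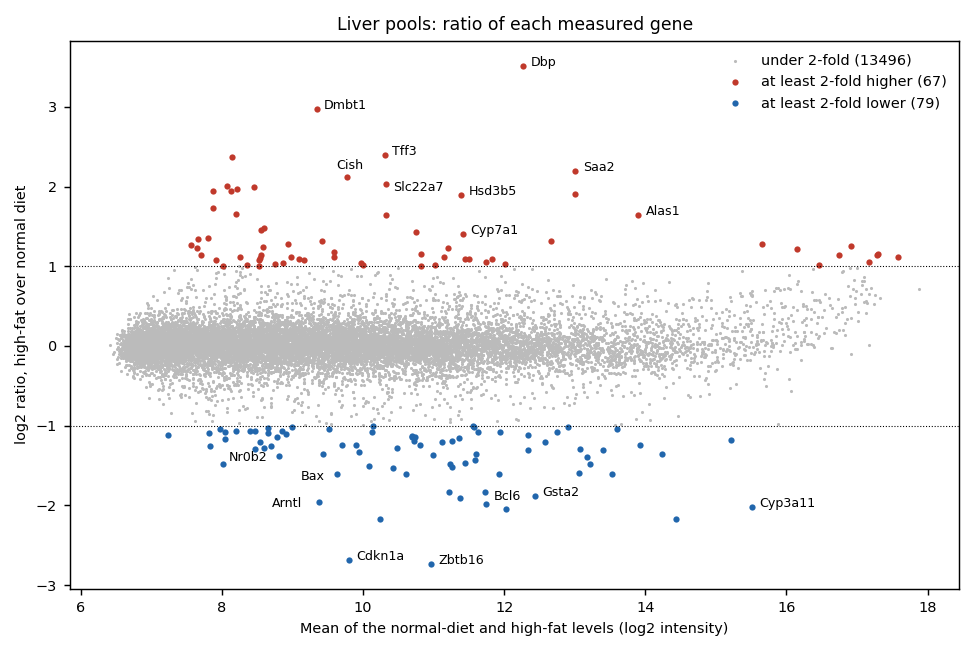
Ratio of each of 13642 measured genes (y axis, log2 of HFD over ND) against the mean of its levels in both pools (x axis, log2 intensity), with genes at least 2-fold higher in red and lower in blue. Dbp stood alone at 3.52, Zbtb16 and Cdkn1a lay lowest, and the cloud bends upward at its bright end.

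The gene with the widest ratio on the array was a clock gene. Dbp, a clock-driven activator of liver metabolism genes, had a level of 10.51 in the ND pool and 14.03 in the HFD pool, a ratio of 3.52 ± 0.28 (scanner error), or 11.4-fold. Its 2 probes read 3.50 and 3.53. Arntl, which encodes the activator BMAL1, went the opposite way, with a level of 10.35 in the ND pool and 8.40 in the HFD pool, a ratio of -1.95 ± 0.30. Its partner Clock stood at -0.39 and Rora, an activator of Arntl, at -0.17. Clock genes cycle over the day, and since the time of sampling is not given, a shift in the phase of the clock and a change in its level cannot be told apart in these ratios. Of 4 core activators measured, 1 was lower and none higher, with a median of -0.28.

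The repressors lay mostly above 0. Of 9 measured, 3 were higher and none lower, and the median was 0.83. Nr1d1 (1.11 ± 0.24), Nr1d2 (1.03 ± 0.23), which encode the REV-ERB repressors of Arntl, and Cry2 (1.09 ± 0.23) passed 2-fold. Per2 stood at 0.99 and Ciart, a repressor of CLOCK and BMAL1, at 0.83. Per3 was above background in the HFD pool alone, at a level of 7.80. That is 2.06-fold above its ND level of 6.75, which was not well above background. Per1 (0.07), Cry1 (-0.22) and Nfil3 (-0.92), a repressor that competes with DBP for its sites, did not share that direction.

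Among 20 clock output genes 6 were higher and 1 lower, with a median of 0.57. After Dbp came Alas1, the first and rate-limiting enzyme of heme synthesis, at levels of 13.08 and 14.73 (ND and HFD) and a ratio of 1.65 ± 0.18. Wee1, a kinase that delays mitosis, was at 1.46 ± 0.27, and Usp2, a deubiquitinase, at 1.43 ± 0.25. Noct (1.03), a phosphatase of dinucleotide cofactors, and Upp2 (1.01), a uridine phosphorylase, were just inside the threshold. Tef (0.79) and Hlf (0.35), relatives of Dbp, were under it. Rgs16, a regulator of G protein signalling, was lower at -1.15 ± 0.23. With all local backgrounds used as deposited, the median of the repressors fell to 0.06. Of the called genes in these clock lists, only Dbp and Alas1 were still past 2-fold. Arntl read -0.616, Nr1d1 0.245, Nr1d2 0.435, Cry2 0.834, Usp2 0.892 and Rgs16 -0.946.

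**Figure D2:**
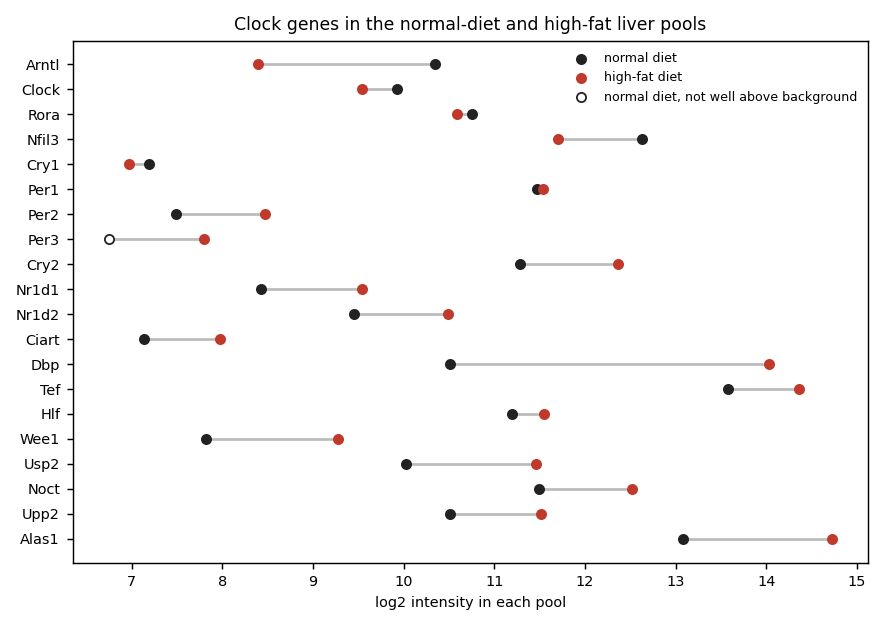
Levels of 20 clock genes (x axis, log2 intensity) in the ND pool (black) and the HFD pool (red), joined by a line. Levels compare the pools within a row only, since each row is another probe. Arntl, Clock, Rora, Nfil3 and Cry1 lay lower in the HFD pool, and the open circle of Per3 marks a level not well above background.

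The promoters of a repressor and of the activator that moved against it are shown because they carry the letters of opposite arms of the clock. Each is the window of 250 bases before to 50 after the annotated start, from RefSeq on build GRCm38.p6. The 300-base window of Arntl (chr7:113207261-113207560, plus strand) holds 1 match to the REV-ERB and ROR element TAGGTCA, and that of Ciart (chr3:95882179-95882478, minus strand) holds 3 matches to the E-box CACGTG, all in capitals. Both strands were searched.
Arntl: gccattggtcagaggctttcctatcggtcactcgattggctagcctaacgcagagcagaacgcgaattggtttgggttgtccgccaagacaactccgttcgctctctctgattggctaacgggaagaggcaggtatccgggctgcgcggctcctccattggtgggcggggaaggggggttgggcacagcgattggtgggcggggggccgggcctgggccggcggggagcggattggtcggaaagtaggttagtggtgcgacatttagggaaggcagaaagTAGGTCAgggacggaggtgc
Ciart: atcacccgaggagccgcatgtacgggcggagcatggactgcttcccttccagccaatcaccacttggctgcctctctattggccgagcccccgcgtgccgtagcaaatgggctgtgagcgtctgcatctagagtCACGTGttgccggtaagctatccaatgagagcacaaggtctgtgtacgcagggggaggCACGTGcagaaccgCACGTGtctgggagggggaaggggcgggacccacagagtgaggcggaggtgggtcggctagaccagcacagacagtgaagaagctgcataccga
TAGGTCA was found in 2.61% and CACGTG in 7.15% of all 32851 promoters of the table. Of 8 promoters of core repressors matched, 3 held CACGTG, those of Ciart, Cry1 and Per1, of which Cry1 and Per1 were near 0. A match describes the window and does not show a bound factor.

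Genes that respond to glucocorticoids tended to be lower. Of 35 measured, 7 were lower and 1 higher, with a median of -0.34. Under median centring 5 were lower and 4 higher, and the list's distance from the median of all genes shrank from -0.35 to -0.15. Zbtb16, a transcriptional repressor, was the lowest gene of the array, at levels of 12.32 in the ND pool and 9.59 in the HFD pool (-2.73 ± 0.33, 6.63-fold). Cdkn1a, which encodes the cell cycle inhibitor p21, followed with levels of 11.15 and 8.47 (-2.68 ± 0.11). Its probe was printed 10 times, and the 10 spots read -2.80 to -2.57. Bcl6, a repressor that opposes STAT5 at shared sites, was at -1.98 ± 0.28. Ddit4, an inhibitor of mTORC1, was at -1.61 ± 0.26, and Tsc22d3, which encodes the anti-inflammatory protein GILZ, at -1.29 ± 0.24.

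Pdk4, a kinase that closes the entry of pyruvate into the citric acid cycle, stood at -1.48 ± 0.25 and Gadd45b at -1.14. Fkbp5, a chaperone partner of the glucocorticoid receptor and a common readout of it, was at -0.16. Sgk1 was at -0.78, Dusp1 at -0.46 and Tat at -0.48, all under the threshold. Skeletal muscle markers were lower in the same pool (21 of 42, median -0.99, described further on), the lowest being Myh4 at -1.60. Of the glucocorticoid list, Zbtb16, Cdkn1a and Bcl6 read below Myh4, and Ddit4 (-1.61 ± 0.26) read about the same. The part of muscle RNA in these ratios was not tested.

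Targets of p53 did not share the position of Cdkn1a. Of 31 measured, 3 were lower, Cdkn1a, Ddit4 and Bax, and none was higher, with a median of -0.01. Bax, an effector of apoptosis, was at -1.61 ± 0.27 on 1 probe. Gadd45a, another target, read 0.83, and Gdf15 read -0.46. Bmf, a pro-apoptotic relative of BAX, was on the other side at 1.14 ± 0.24.

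Of the feedback genes of growth hormone signalling through STAT5, 11 of 15 measured lay above 0, against 52.3% of all measured genes. Cish, an inhibitor of cytokine receptors, had levels of 8.71 in the ND pool and 10.83 in the HFD pool (2.13 ± 0.30, 4.36-fold). Socs2, which restrains the growth hormone receptor, was at 1.31 ± 0.12, and its 3 probes read 1.21, 1.27 and 1.45. Bcl6, which opposes STAT5, was lower, and Igfbp1, a binding protein of insulin-like growth factors that insulin represses, read -0.98. Igf1 itself stood at 0.26. Of 15 members measured 2 were higher and 1 lower, with a median of 0.26. With local backgrounds as deposited no member was 2-fold higher, and Cish read 0.838 and Socs2 0.399. The promoter of Cish (chr9:107296409-107296708, plus strand) is shown because it holds 2 matches to the STAT site TTCNNNGAA (capitals), both at or just after the start.
Cish: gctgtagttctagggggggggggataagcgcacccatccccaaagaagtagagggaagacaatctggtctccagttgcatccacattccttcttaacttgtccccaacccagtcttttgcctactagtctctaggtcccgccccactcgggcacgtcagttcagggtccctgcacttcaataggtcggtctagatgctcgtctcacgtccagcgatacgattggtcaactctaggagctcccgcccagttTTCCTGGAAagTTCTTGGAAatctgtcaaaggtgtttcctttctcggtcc
TTCNNNGAA was found in 8.3% of all promoters and in 7 of 23 windows (30.4%) of this list's genes, some of which have several starts.

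**Figure D3:**
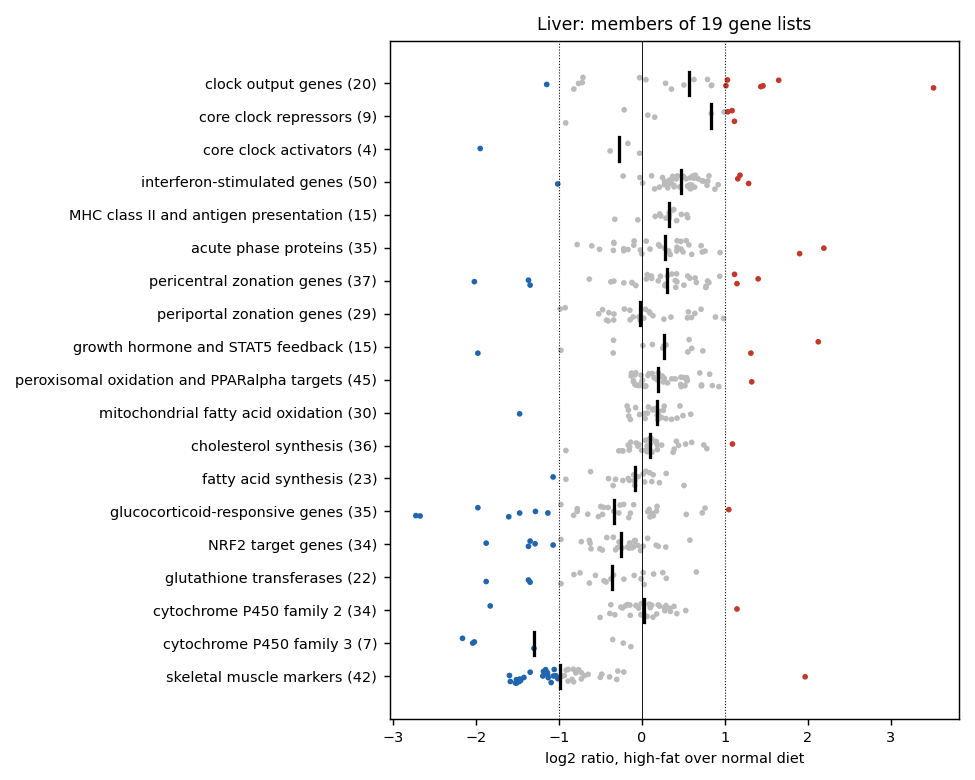
Ratios (x axis, log2 of HFD over ND) of the measured members of 19 gene lists (number in brackets), with genes at least 2-fold higher in red, lower in blue, and the median of each list as a black bar. Repressors and outputs of the clock and interferon genes sit to the right of 0, and cytochrome P450 family 3 and skeletal muscle markers to the left.

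Drug metabolism genes were lower in the HFD pool in a few families, and most others were near the median gene. All 7 measured members of cytochrome P450 family 3, the main drug-oxidizing family of liver, lay below 0, and 4 were at least 2-fold lower, with a median of -1.30. Cyp3a11, the most studied of them in mouse, had levels of 16.53 in the ND pool and 14.51 in the HFD pool, a ratio of -2.02 ± 0.20, and its 2 probes read -2.03 and -2.02. Cyp3a16 (-2.17 ± 0.28) and Cyp3a41b (-2.04 ± 0.28) stood beside it. The 2 probes of Cyp3a59 read -1.69 and -0.92. Cyp3a57 (-0.35), Cyp3a25 (-0.23) and Cyp3a13 (-0.14) were close to 0. These genes are near copies of each other, so their probes may share transcripts and the ratios are not 4 separate observations. Under median centring Cyp3a59 was no longer past 2-fold (-0.77), while Cyp3a11, Cyp3a16 and Cyp3a41b were.

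In family 2 the members were spread around 0 (34 measured, 1 higher, 1 lower, median 0.03). Cyp2b10, the classic target of the receptor CAR, was lower, with levels of 12.64 and 10.81 (ND and HFD) and a ratio of -1.83 ± 0.27. Cyp2e1, which oxidizes ethanol and ketone bodies, was higher at 1.14 ± 0.15, but it is among the brightest genes and read 0.77 by the software's own ratio. The regulators moved less. Nr1i2, which encodes the receptor PXR that drives Cyp3a11, read -0.76 ± 0.21, and Nr1i3, which encodes CAR, 0.34. Por, the electron donor of all these enzymes, read 0.50.

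Glutathione transferases, which conjugate reactive compounds, were lower as a list (22 measured, 3 lower, none higher, median -0.36). With median centring 1 was lower and 2 were higher, and the list's distance from the median of all genes shrank from -0.37 to -0.19. Gsta2 had levels of 13.37 in the ND pool and 11.49 in the HFD pool (-1.88 ± 0.27). Gstm3 (-1.37 ± 0.17) and Gstm1 (-1.35 ± 0.17) were lower with both of their probes, and Gsta4 stood at the edge at -0.98 ± 0.07 over 10 spots. The predicted genes Gm3776 (-2.17) and Gm10639 (-1.90) lie next to Gsta2 on chromosome 9, with 2 genes between Gm10639 and Gsta2. Mgst1, a membrane-bound transferase, went the other way at 0.65, and Gsta3 read 0.01. Targets of NRF2, the sensor of oxidative stress, overlap this list (34 measured, 5 lower, none higher, median -0.26). Under median centring 2 of them were lower and 2 higher, and the list lay -0.06 from the median of all genes, against -0.27. Its classic target Nqo1 read -0.10. Hmox1, which opens the heme ring, averaged -1.29, but its 2 probes read -2.59 and 0.01, on both sides of 0.

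Of 21 esterases measured 1 was called, with 8 above and 13 below 0. This was Ces2a, a carboxylesterase, lower at -1.18 ± 0.24. Under the threshold, Ces2c read -0.72, Ces2b -0.54, Ces3a 0.95 and Ces3b 0.65. The median of the esterase list (-0.12) lay below that of all genes and, under median centring, above it. Slc22a7, which carries organic anions into hepatocytes, was the 1 called gene among 27 drug transporters, at levels of 9.31 and 11.34 and a ratio of 2.03 ± 0.29.

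**Figure D4:**
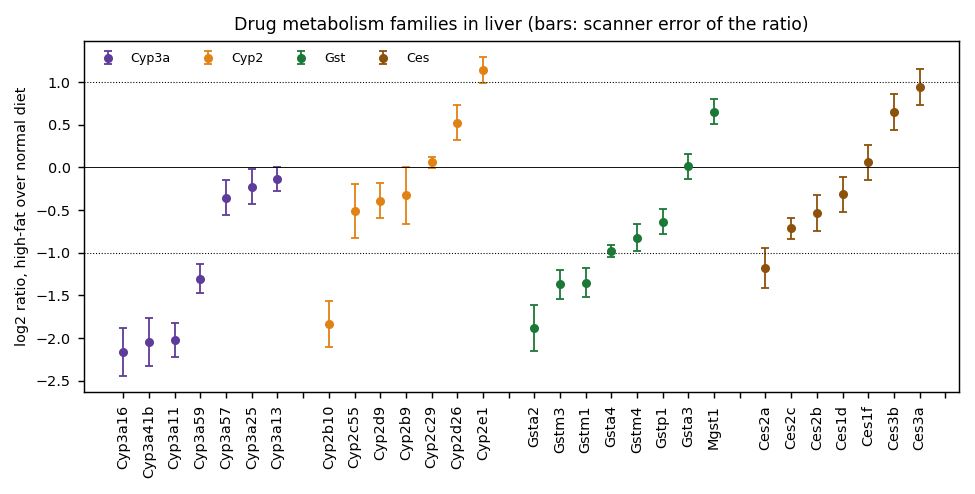
Ratios (y axis, log2 of HFD over ND) of chosen members of 4 drug metabolism families, with the scanner error as bars. 4 Cyp3a genes, Cyp2b10, Gsta2, Gstm1, Gstm3 and Ces2a lie below the dotted line at -1, and Cyp2e1 lies above the line at 1.

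Control genes of bile acid synthesis lay on opposite sides. Cyp7a1, the rate-limiting enzyme, had levels of 10.71 in the ND pool and 12.11 in the HFD pool (1.40 ± 0.25, 2.64-fold). Nr0b2, which encodes SHP, a repressor of Cyp7a1 that bile acids induce, was lower at -1.38 ± 0.25. Cyp39a1, an oxysterol hydroxylase, was at -1.83 ± 0.27. Cyp8b1 (-0.07) and Cyp27a1 (-0.12), which shape the acids made, and the receptor Fgfr4 (-0.11) were close to the median gene. In all, 2 of 26 members were higher, Cyp7a1 and Akr1c6, and 2 lower, with a median of -0.01.

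Of 36 genes of cholesterol synthesis and its control, only Idi1, the isopentenyl diphosphate isomerase, was called (1.09 ± 0.23). Sqle (0.78) and Msmo1 (0.74) lay in the same direction. Insig2, which holds back the SREBP activators, read -0.92. The list's median was 0.09.

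Fatty acid genes showed small shifts of few members. In the list of peroxisomal oxidation and PPARα targets (45 measured), only Nudt7, a hydrolase of coenzyme A in peroxisomes, was called, with levels of 12.01 and 13.33 and a ratio of 1.32 ± 0.17. Acot3 (0.85), a thioesterase of acyl-CoA, and Cyp4a14 (0.81), a fatty acid hydroxylase, lay in the same direction, and the list's median was 0.19. Cyp4a14 is a bright gene, with a mean level above 16. Mitochondrial oxidation had a median of 0.18 over 30 genes, with Cpt1a, its gatekeeper, at 0.46 and Pdk4 as its 1 called member. None of 10 ketogenesis genes was called.

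Fatty acid synthesis (23 genes, median -0.09) had 1 lower member, Tkt, an enzyme of the pentose phosphate pathway (-1.07 ± 0.23). Scd1, the main desaturase, read -0.62, Fasn -0.41 and Srebf1 0.21. The median of this list lay above that of all genes under median centring. Elovl3, a fatty acid elongase that is rhythmic and male-biased in liver, was lower at -1.39 ± 0.24. Chka, the first enzyme of phosphatidylcholine synthesis, was at -1.36 ± 0.15 with its 3 probes at -1.62, -1.27 and -1.18. Plin4, a coat protein of lipid droplets, read -0.93, and Cd36, a fatty acid transporter, -0.09.

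Apoe (1.15 ± 0.07) and Apoa2 (1.14 ± 0.15) were the 2 called genes of 37 for lipoproteins, and the 10 spots of Apoe read 1.12 to 1.19. Both are among the brightest genes of the array. They read 0.69 and 0.65 by the software's ratio and 0.88 each after the running median by brightness was subtracted, under 2-fold in both cases. Genes of glucose output read G6pc -0.52, Pck1 -0.41 and Fbp1 0.60, and none but Pdk4 of 31 was called. Car3, a carbonic anhydrase abundant in liver and fat, was higher at 1.28 ± 0.23.

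Genes of the central and the portal zones were compared as lists. Of 37 pericentral genes 3 were higher and 3 lower, with a median of 0.31, and of 29 periportal genes none was called, with a median of -0.02. The 3 lower pericentral genes were Cyp3a11, Gstm1 and Gstm3. The higher ones were Cyp7a1, Cyp2e1 and Rnf43, a ubiquitin ligase that removes Wnt receptors (1.12 ± 0.23). Rhbg (0.94), an ammonium transporter, Gulo (0.81), the last enzyme of vitamin C synthesis, and Oat (0.79), which degrades ornithine, lay in the same direction. Glul, the glutamine synthetase of the innermost layer, read 0.40. Sp5, a direct Wnt target, was higher at 1.08 ± 0.25, while Lgr5 (0.20) and Axin2 (0.05) were near 0. Under median centring the periportal median lay above that of all genes, and that of the pericentral genes stayed further above.

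Of 60 enzymes of amino acid catabolism 1 was lower and none higher. Csad, which makes hypotaurine on the way to taurine, had levels of 14.55 in the ND pool and 13.31 in the HFD pool (-1.24 ± 0.23). Gldc, of the glycine cleavage system, was just outside the threshold at -0.99, with Etnppl at -0.93 and Asns at -0.74. Slc39a4, an importer of zinc, was just inside at -1.04 ± 0.22. Both Csad and Slc39a4 were under 2-fold with median centring.

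Of 38 aldo-keto reductases and steroid dehydrogenases measured 3 were higher and none lower, with 21 above 0 and a median of 0.05. Hsd3b5, a male-biased steroid reductase of mouse liver, had levels of 10.45 in the ND pool and 12.34 in the HFD pool (1.89 ± 0.27). Akr1c18, which inactivates progesterone, read 2.00 ± 0.38 from a dim ND level of 7.07, and its neighbour Akr1c6 read 1.22 ± 0.22, or 0.98 by the software's ratio, under 2-fold. Hsd3b2 stood at 0.93. Of 31 male-biased genes 4 were higher (Hsd3b5, Moxd1, Nudt7, Mup2) and 1 lower (Elovl3), with a median of 0.23. Moxd1 rests on 1 probe with a dim ND level of 7.01. With local backgrounds as deposited, Moxd1 read 0.17 and the list's median lay 0.03 above that of all genes. Of 24 female-biased genes none was higher and 4 were lower (Cyp3a16, Cyp3a41b, Cyp39a1, Cyp2b10), with a median of 0.11. Cyp3a16 and Cyp3a41b are near copies whose probes may share transcripts, so they are not separate observations. Major urinary proteins, carriers of pheromones, were bright and above 0 (Mup2 1.26, Mup19 1.12, Mup20 0.98, Mup5 0.83). They are near copies of each other, so their probes may share transcripts. By the software's ratio Mup2 read 0.86 and Mup19 0.62.

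Interferon-stimulated genes lay above 0 almost throughout: 47 of 50 measured, against 52.3% of all measured genes. Their median was 0.47, while 3 were at least 2-fold higher and 1 lower. Ifit1, which binds foreign RNA, had levels of 8.29 in the ND pool and 9.58 in the HFD pool (1.29 ± 0.25). Gbp3, a GTPase of cell defence, was at 1.18 ± 0.24, and Usp18, which removes ISG15 and dampens the response, at 1.15 ± 0.23. Rsad2, the antiviral protein viperin, followed at 0.92, and Ifi44 at 0.88. Bst2, which tethers budding virions, was the exception at -1.02 ± 0.22 on 1 probe, and read -0.99 by the software's ratio. The list's median minus that of all genes lay between 0.13 and 0.60 over 9 other settings. With local backgrounds as deposited no member was 2-fold higher, and Ifit1 read 0.276, Gbp3 0.395 and Usp18 0.724.

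The promoters of Ifit1, Rsad2 and Bst2 are shown because all 3 hold a match to the interferon-stimulated response element (ISRE, here GAAA, any 2 bases, then GAAA) while their ratios point in different directions. The windows are chr19:34640639-34640938 (plus strand) for Ifit1, chr12:26456403-26456702 (minus strand) for Rsad2 and chr8:71537423-71537722 (minus strand) for Bst2. Capitals mark the matches on either strand, of which the 2 of Bst2 overlap each other and a STAT site.
Ifit1: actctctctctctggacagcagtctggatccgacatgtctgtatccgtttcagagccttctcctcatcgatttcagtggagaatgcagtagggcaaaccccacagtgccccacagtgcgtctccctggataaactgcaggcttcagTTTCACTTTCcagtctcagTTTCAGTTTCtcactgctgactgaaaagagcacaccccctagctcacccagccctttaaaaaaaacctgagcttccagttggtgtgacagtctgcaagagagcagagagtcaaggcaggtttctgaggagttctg
Rsad2: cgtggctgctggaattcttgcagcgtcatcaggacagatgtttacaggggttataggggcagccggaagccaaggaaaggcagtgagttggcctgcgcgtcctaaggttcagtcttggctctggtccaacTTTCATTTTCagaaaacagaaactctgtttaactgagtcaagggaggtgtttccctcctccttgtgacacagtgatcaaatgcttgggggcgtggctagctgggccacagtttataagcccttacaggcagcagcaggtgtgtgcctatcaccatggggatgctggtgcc
Bst2: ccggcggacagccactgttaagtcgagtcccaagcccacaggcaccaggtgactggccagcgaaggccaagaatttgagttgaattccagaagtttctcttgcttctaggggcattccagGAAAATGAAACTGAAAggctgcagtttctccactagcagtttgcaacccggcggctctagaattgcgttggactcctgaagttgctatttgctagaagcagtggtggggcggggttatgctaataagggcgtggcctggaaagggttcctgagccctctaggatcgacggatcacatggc
The ISRE letters were found in 19 of 44 promoters (43.2%) of this list and in 3.44% of all promoters.

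Other immune lists had smaller medians. None of 15 antigen presentation genes was called, with a median of 0.33 and H2-Aa highest at 0.55. Acute phase genes had a median of 0.27 and 2 higher members of 35. Those were the serum amyloids Saa2 (levels 11.91 and 14.11, ratio 2.19 ± 0.29) and Saa1 (12.05 and 13.95, ratio 1.90 ± 0.27). These are near copies on adjacent positions, so their probes may share transcripts. Hamp, the hormone that limits iron uptake, read 0.94 and Lcn2 0.76, while Saa3 read -0.61. Cxcl13, a chemokine for B cells, was lower at -1.12 from a dim HFD level of 6.68.

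Kupffer cell and macrophage markers had 2 lower members of 34, Marco, a scavenger receptor (-1.28 ± 0.24), and Hmox1. Trem2, a lipid-sensing receptor, read 0.78, Cd9 read -0.77, and Clec4f, which is specific to Kupffer cells, read 0.39, with a list median of 0.10. In RNA from whole livers, fewer cells of a type and less RNA per cell cannot be told apart.

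Early response genes were mixed (37 measured, 3 higher, 2 lower, median 0.07). Nr4a1, an orphan nuclear receptor, was at 1.22 ± 0.24, and Fos, a subunit of AP-1, at 1.11 ± 0.08 over 10 spots. Ier5 was at 1.27 ± 0.35 from a dim ND level of 6.92. Klf10, a zinc finger repressor, was at -1.24 ± 0.23.

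Markers of skeletal muscle were lower in the HFD pool as a block. Of 42 measured, 21 were lower and 41 below 0, with a median of -0.99. The list's median minus that of all genes ran from -1.24 to -0.20 over 9 other settings, the last with local backgrounds as deposited. Myh4, the fast myosin heavy chain, had levels of 12.73 and 11.13 (ND and HFD, ratio -1.60 ± 0.25). Tnni2, a fast troponin, had 13.86 and 12.27, ratio -1.59, and Myh7, the slow myosin, 11.18 and 9.65, ratio -1.53. Both fast and slow fibre genes were thus lower. The summed intensity of the list was 95419 in the ND pool and 39970 in the HFD pool, 0.203% and 0.077% of the total over all measured genes. Another 2 markers were above background in the ND pool alone, and none in the HFD pool alone. Trim54, a ubiquitin ligase of striated muscle, was the 1 higher member, at 1.97 ± 0.33 from a dim ND level of 7.22. The diaphragm and cardiac list had 2 lower members of 9, Myl2 (-1.24) and Myl3 (-1.08). Without the muscle lists 66 genes were higher and 56 lower. Slc2a4 (-1.07), the insulin-responsive glucose transporter of muscle and fat, and the muscle genes Myom2 (-1.29), Myoz2 (-1.25) and Pgam2 (-1.21) were lower outside those lists.

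Markers of mucosa leaned the other way. Dmbt1, a secreted scavenger protein of bile ducts and gut, had levels of 7.86 in the ND pool and 10.83 in the HFD pool (2.98 ± 0.41). Tff3, a trefoil peptide of mucus, read 2.40 ± 0.32 from an ND level of 9.11. Reg3b, an antimicrobial lectin, had levels of 6.98 and 8.33 (1.35 ± 0.35). Of 29 intestinal markers 12 were measured, with these 3 higher. Of the 12, 8 lay above 0 and 4 below, with a median of 0.315. Another 8 were seen in the HFD pool alone (Defa3, Fcgbp, Krt20, Lct, Mep1b, Reg3g, Sis and Vil1), none in the ND pool alone, and 8 in neither. Of those seen in the HFD pool alone, Defa3, a defensin of Paneth cells, had a bound of 2.73-fold, given by its levels of 6.43 and 7.88 (ND and HFD). The bounds of the others were under 2-fold, from 1.17-fold (Mep1b) to 1.8-fold (Krt20). Over all genes on the array, 421 were seen in the HFD pool alone and 351 in the ND pool alone. Sis, the sucrase of enterocytes, had a level of 6.60 in the HFD pool, against a lowest level above background of 6.37 there. The biliary list had 2 of 20 higher (Dmbt1 and Tff3). Krt19, a defining bile duct keratin, read 0.25, and Epcam, Krt7, Cldn4 and Muc1 were above background in neither pool. Cdh16, a cadherin of kidney tubules, was at 2.37 ± 0.45 from a dim ND level of 6.95, the 1 called gene of 9 kidney markers. The part of such tissues in these ratios was not tested.

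**Figure D5:**
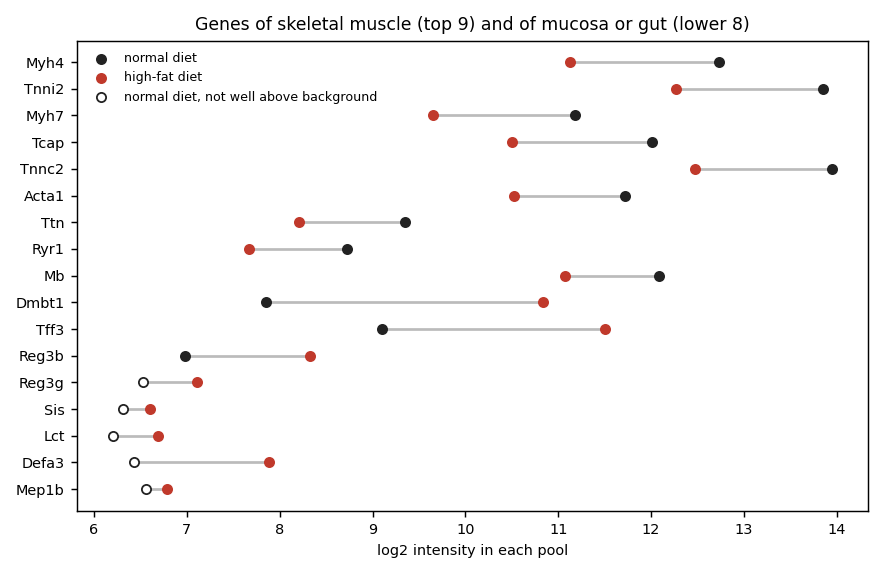
Levels (x axis, log2 intensity) of 9 skeletal muscle genes and 8 genes of mucosa or gut in the ND pool (black) and HFD pool (red), each row to be read on its own. All 9 muscle genes shown lay lower and all 8 mucosal genes shown lay higher in the HFD pool. Of the mucosal genes, 5 had an ND level not well above background (open circles). The rows were picked from longer lists, in which Trim54 was higher and 4 of 12 measured intestinal markers lay below 0.

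Genes seen in 1 pool alone were uneven between the pools. In the HFD pool alone 421 genes were above background, of which 45 had a bound of at least 2-fold. In the ND pool alone there were 351, of which 1 did, Adra2a (bound of 2.11-fold, lower in the HFD pool), an adrenergic receptor. The largest bounds were Ppef2 (7.36-fold), Shc3 (6.55-fold), Nmrk2 (6.38-fold), a nicotinamide riboside kinase of muscle, and Zfy1 (6.20-fold), all on 1 probe. Such bounds are open to dye bias. They come from dim spots without an error and are not guaranteed minima.

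Of 146 called genes 48 fell in none of 87 lists, 25 higher and 23 lower. Tsc22d1, a relative of Tsc22d3, was higher with both probes (1.49 and 1.79), while Tsc22d3 was lower. Clpx, the unfoldase of a mitochondrial protease that acts on ALAS1, had levels of 14.34 in the ND pool and 12.73 in the HFD pool (-1.61 ± 0.25), opposite in direction to Alas1. Kiss1, the precursor of kisspeptin, was higher with both probes (1.05 and 1.18). Gpcpd1, a phosphodiesterase of glycerophosphocholine, was at 1.05. Tubb2a, a tubulin, was at -1.30 and its pseudogene Tubb2a-ps2 at -1.09, and their probes may share transcripts. Exosc2 (1.05) and Spag7 (1.02) were bright and under 2-fold by the software's ratio (0.59 and 0.75).

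Several called genes were neighbours. In 14 pairs of called genes at most 4 genes lay between them, and 12 pairs shared their direction. These were the Cyp3a cluster, Gstm3 and Gstm1, Gm3776, Gm10639 and Gsta2, Akr1c18 and Akr1c6, Saa1 and Saa2, Clec2h and Clec2i, the myosins Myh2, Myh1 and Myh4, and Tnni2 with Tnnt3. Most of these are duplicated genes, whose probes can share transcripts. Tacc2 and Dmbt1, and Cdh16 and Ces2a, differed in direction.

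Repeated measurements within the array were compared. Over 262 probes with at least 8 measured spots the median SD between spots was 0.05. Over 3397 genes with several probes the median distance between the highest and lowest probe was 0.145 and its 95th percentile 0.50, and 2064 of these genes had all probes on 1 side of 0. Among called genes the probes of Hmox1, Tcim (-1.49 and -0.71) and Cyp3a59 lay further apart than that. Of 11 higher genes with several probes 8 had every probe past 2-fold, and of 12 lower genes 7. The other 56 higher and 67 lower genes rest on 1 probe. All these measures stay within 1 pair of pools, and none of them holds the spread between mice.

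On the adipose array, a separate pair of pools of the series in which 4.23% of genes were higher and 5.13% lower, 59 of the 67 higher liver genes were measured, with 6 higher and 5 lower there. Of the 79 lower genes 67 were measured, with 5 higher and 12 lower. No test of the tissues against each other was possible.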

How the data were processed

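Each channel held the pooled liver RNA of 1 diet. The scanner software was Agilent Feature Extraction, version 11.5.1.1 per the file headers and 8.5.1.1 per the submitters' processing notes. The deposited files give the median intensity of each spot and its local background per channel, without normalization. They also hold the deposited log10 ratio of red over green, corrected and dye-normalized by the scanner software, with its error. These were turned into log2 values. Mean signals had been planned, and the deposited medians were used in their place.

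Local backgrounds flagged as outlying by the software (1602 red, 665 green) were replaced by the channel median, and normexp with an offset of 50 was run in limma 3.58.1 (R 4.3.3). Loess followed, with control spots at weight 0, and its script was checked on simulated data. Levels were scaled over both arrays of the series (Aquantile), which keeps the ratios. Marked spots (184) were left out, and a probe had to be well above background in both channels. Spots of a probe and then probes of a gene were averaged. For a gene seen in 1 channel, the bound is its bright level over the higher of its dim level and the lowest level above background in the dim channel. Where its own dim level was the higher, the bound is the plain ratio of its levels. Some bounds lay under 1, such as that of Serpina12 (0.926).

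Probes were named through RefSeq accessions. The arrays' annotation is of an older build, so genes have no positions, and only neighbours and RefSeq promoter windows were taken from the reference. The 87 gene lists, the rule of size and the naming rule were chosen with earlier results of these data known. Any gene past 2-fold could be named, and in each list the 8 members farthest from 0 and its defining members. Further genes in the text were picked with their values in view. The closing section gives the effect of 11 alternatives. Some genes that the naming rule takes are left out of the text.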

Additional observations from a re-analysis of the deposited data

Results flagged for a closer look

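The adipose array of the same series had its own pools and was not compared with liver by any test. The genes below were past 2-fold in opposite directions in the 2 tissues, and the difference was not tested.

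Higher in the HFD liver pool and lower in the HFD adipose pool were Mup2 (1.26 in liver, -3.47 in adipose tissue), Akr1c6 (1.22 and -4.26), Apoa2 (1.14 and -3.16), Mup19 (1.12 and -3.15) and Gpcpd1 (1.05 and -1.20). The first 4 are abundant products of hepatocytes, and the hepatocyte markers had a median of -3.30 in the adipose pools. Lower in liver and higher in adipose tissue were AA986860 (-1.03 and 1.62), Slc39a4 (-1.04 and 2.02), Prxl2b (-1.11 and 1.09), Ces2a (-1.18 and 1.18) and Gm3776 (-2.17 and 2.07). Intestinal markers had a median of 3.90 in the adipose pools. The part of other tissues in these values was not tested.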

How the results depend on the processing

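None of the 146 called genes changed sign under any alternative run, but the counts moved. The software's log ratio gave 138 genes higher and 157 lower. All local backgrounds as deposited gave 20 and 35, and median centring gave 445 and 28, with 94.1% of the calls higher. Probes above background in at least 1 channel gave 116 higher genes, and no filter on dim probes gave 103. The counts stayed within 1.5 times of 67 and 79 without background subtraction, with an offset of 10 and after subtraction of a running median by brightness. They also did so with the brightest probe per gene and without the muscle lists. The brightest probe could not change the 56 higher and 67 lower genes that rest on 1 probe. A ratio over 2 times the scanner error could drop no call, since the largest error among called genes was 0.453 (Cdh16). Past 2-fold under all of 7 renormalizations were 10 of the higher genes (Dbp, Tff3, Saa2, Slc22a7, Saa1, Hsd3b5, Alas1, Cyp7a1, Nudt7 and Car3) and 18 of the lower ones. The lower ones were Zbtb16, Cdkn1a, Gm3776, Cyp3a16, Cyp3a41b, Cyp3a11, Bcl6, Gm10639, Gsta2, Cyp39a1, Cyp2b10, Ddit4, Clpx, Myh4, Tnni2, Tcap, Pdk4 and Tnnt3. Of the 146 called genes, 95 were no longer past 2-fold with backgrounds as deposited, 51 with median centring and 12 with the software's ratio. No spot was saturated, so leaving saturated spots out changed nothing. No paired analysis was possible because each diet is 1 pool on 1 array.

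Some calls rest on dim spots. Of the higher genes 11 had an ND spot signal under 100 and 4 of the lower genes an HFD signal under 150, where the median local backgrounds were 28 and 48.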
